A study of Homo sapiens with 6 samples.

Results

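The lysosome is the acidic compartment in which cells break down proteins, glycans and lipids that arrive by endocytosis, autophagy or the uptake of lipoproteins. Its soluble hydrolases are proteases of the cathepsin family, glycosidases, sulfatases, lipases and small activator proteins. Its limiting membrane carries heavily glycosylated proteins, transporters, channels and the proton pump, the V-ATPase, that acidifies the lumen. Many of these genes share an E-box in their promoters, the CLEAR element, which is bound by TFEB and its relative TFE3. Both factors are held in the cytoplasm by phosphorylation at the lysosome and enter the nucleus when mTORC1 activity falls. In hepatocytes, lysosomes take part in the turnover of lipid droplets.

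Described here are 40 genes of this compartment, chosen by gene symbol, of 58037 gene rows in all. They are 9 cathepsins, 12 glycosidases, 5 sulfatases, 4 other hydrolases and activators, 8 membrane proteins, and the transcription factors TFEB and TFE3. HepaRG is a human hepatocellular carcinoma line that can mature into hepatocyte-like cells with biliary-like cells beside them. The study loaded differentiated HepaRG cells with fatty acids as a model of steatosis, the storage of excess fat in liver cells, to examine drug metabolising enzymes. The fatty acid group (3 libraries) received 0.5 mM of palmitate and oleate at 1 part to 2 parts, carried by 0.02% bovine serum albumin (BSA), for 72 h. The control group (3 libraries) received 0.02% BSA without fatty acids for as long. All cells were of passages 15 to 18 and went through 14 days of growth, 14 days of differentiation and then 5 days in basal medium with insulin and hydrocortisone. Both groups come from 1 cell line, and nothing in the labels tells whether the replicates were separate cultures. The p-values therefore measure the spread between these libraries, which may be technical.

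Levels are in FPKM, the fragments divided by gene length and by the fragments of the library. The libraries held 6.33 to 15.9 M reads assigned to genes. The share of reads from mitochondrially encoded genes was 13.6 ± 1.37% in the control group and 10.3 ± 1.43% in the fatty acid group (SD, n = 3 each). Of 13 hepatocyte markers, 10 fell and 2 rose, and their summed level was 16916 to 17640 FPKM in the control libraries and 12809.9 to 13318 FPKM in the fatty acid libraries. The fall of the sum was in ALB, and the other 12 markers summed to 5154 to 5320 FPKM in the control and 5879 to 5984 FPKM in the fatty acid libraries. The 2 that rose are abundant: FGB (mean 1185 against 1937 FPKM) and SERPINA1 (2212 against 2666 FPKM). Most of the other 12 fell, CPS1, TTR, TF and HNF4A among them. Of 7 biliary markers tested, 1 fell (sum 461 to 536 against 442 to 457 FPKM), with EPCAM listed at 0 in every library. Of 6 mesenchymal markers tested, 1 rose (sum 100.4 to 110.4 against 117 to 125 FPKM), with THY1 at 0. Of 3 macrophage and leukocyte markers tested, limma called 0 (sum 11.1 to 15.7 against 15.3 to 16.2 FPKM, mostly CD14), with TYROBP at 0 in every library. The only endothelial marker tested fell, and CDH5 and CLEC4G were at 0. The part of these shifts in the results on lysosomal genes was not tested. In bulk samples, fewer cells of a type and less RNA per cell cannot be told apart.

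Fatty acid loading was accompanied by small changes in a minority of the lysosomal genes. SCARB2, PPT1, FUCA2, NEU1, CTSL, GLA and CD63 rose, each by 16.6 to 27.1% of its mean control FPKM, and the cysteine protease gene CTSF fell by 24.0%. The other 31 tested genes were not called, among them LAMP1, PSAP, all 5 sulfatases, most glycosidases, TFEB and TFE3. A gene was called when its adjusted p was under 0.05 in limma's linear model on log2(FPKM + 0.5), with Benjamini-Hochberg adjustment over all 14661 genes whose mean over the 6 libraries reached 0.5 FPKM. CLN3 lay below that level, so 39 of the 40 were tested, and 8 of them (20.5%) were called against 12.9% of all genes tested. In the upward direction the background was 8.22% and in the downward direction 4.68%. The lysosomal genes are well expressed, with a median of 23.4 FPKM against 4.34 FPKM for all genes tested. Among the 3515 genes in the interquartile range of the lysosomal genes' levels, 9.67 to 77.5 FPKM, 23.0% were called, a share close to the 20.5%.

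The log2 fold changes of the 39 genes ran from -0.44 to 0.33 with a median of -0.01, against a median of 0.04 over all genes, and 19 lay above 0 and 20 below. The fatty acid libraries all lay above the control libraries for 11 of the 39 genes and all below for 5. Over all genes tested, the libraries separated in 37.1%, upward in 23.7% and downward in 13.3%. The summed level of the 40 genes was 2008, 1891 and 1832 FPKM in control replicates 1, 2 and 3, and 1989.9, 2022 and 1959.7 FPKM in the fatty acid replicates. The sums of the groups overlapped, at 1910.4 ± 89.3 against 1990.4 ± 30.9 FPKM (SD, n = 3 each). By role, the sums also overlapped for the cathepsins (583 to 648 FPKM in the control and 630.4 to 646 FPKM in the fatty acid libraries), the glycosidases (278 to 311 against 297 to 308 FPKM) and the other hydrolases and activators (517 to 573 against 537 to 561 FPKM). The sums of the sulfatases (33.73 to 39.0 against 32.6 to 33.66 FPKM) and of TFEB and TFE3 (18.0 to 23.1 against 16.2 to 17.1 FPKM) lay lower in every fatty acid library, by a narrow margin for the sulfatases.

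**Figure D1:**
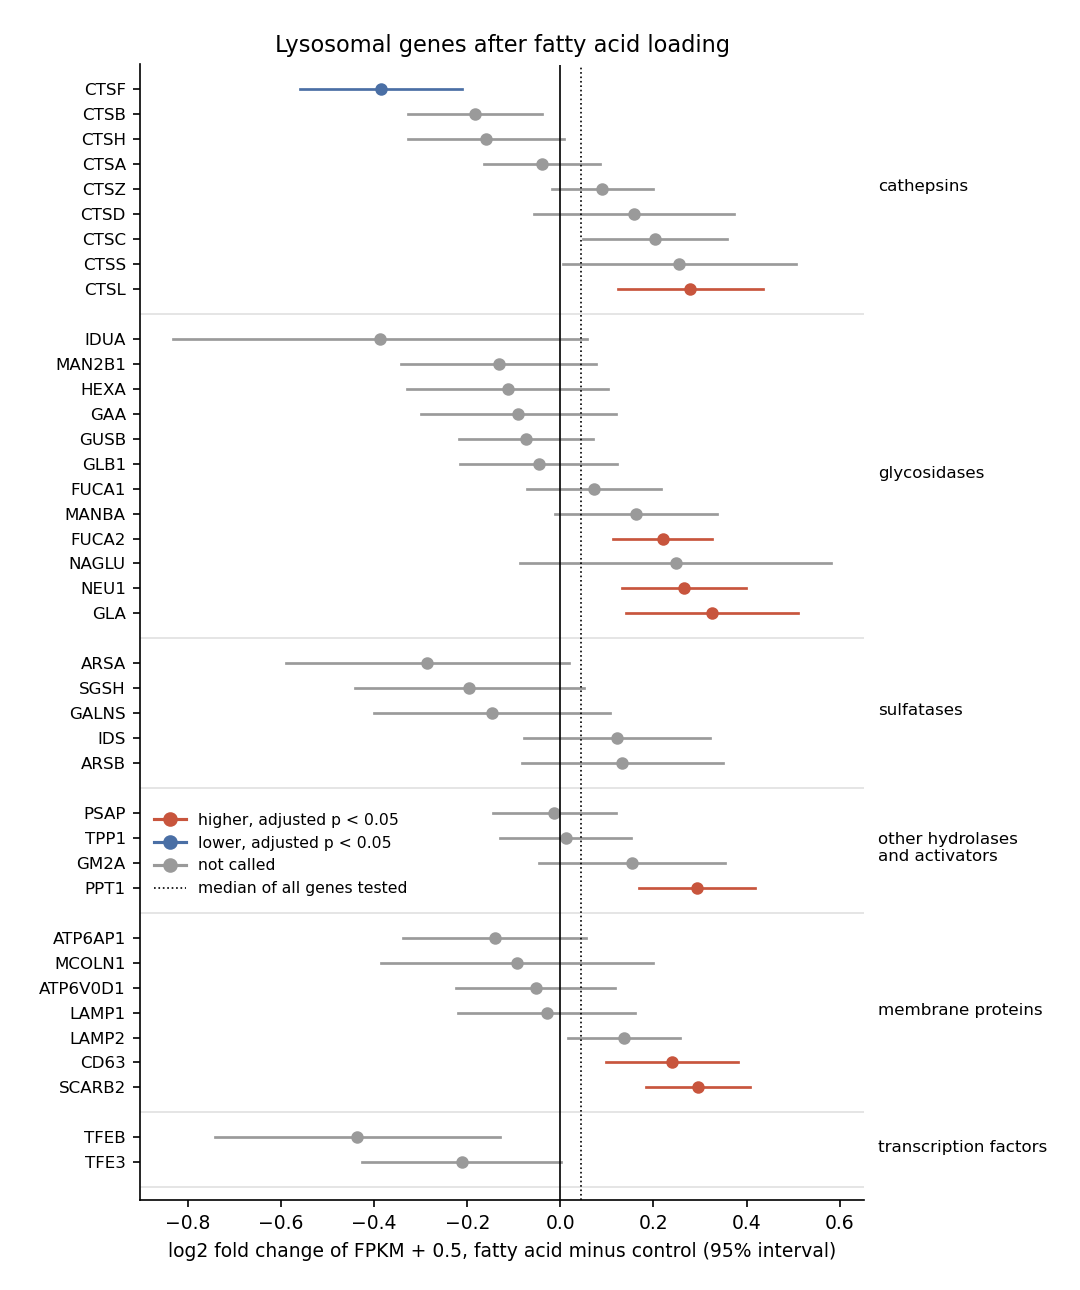
Log2 fold change of FPKM + 0.5, fatty acid minus control, of the 39 tested lysosomal genes grouped by role. Points are limma estimates from 3 libraries a group, lines are 95% intervals, colours mark the 7 genes called higher and the 1 called lower, and the dotted line is the median of all genes tested (0.04).

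The number of calls depended on single libraries and on the scaling. Without fatty acid replicate 1, and likewise without fatty acid replicate 2, limma called 0 of the 39 genes in either direction, while 8 were higher and 3 lower at an unadjusted p under 0.05 each time. Over all genes the calls then fell from 1205 higher and 686 lower to 230 higher and 233 lower, and to 239 higher and 245 lower. Without fatty acid replicate 3 the call of SCARB2 alone was left (1 higher). Without control replicate 3 there were 2 higher and 1 lower, without control replicate 2 there were 3 higher and 2 lower, and without control replicate 1 there were 7 higher and 1 lower, 5 of them among the original 8. With values rescaled to TPM (transcript shares of a common total), which moved the median of all genes from 0.04 to 0.18, 9 lysosomal genes were called higher and 0 lower (18 and 2 at an unadjusted p under 0.05), beside 2615 higher and 408 lower of all genes. With scaling by the median of ratios there were 4 higher and 2 lower, beside 779 higher and 818 lower of all genes. Limma with voom weights on the recovered reads called 7 higher and 4 lower.

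The E-box letters of the CLEAR element are shown as a description, since TFEB and TFE3 bind this element. Windows of 300 bases, from 250 before a start site to 50 after it, were found for 31 of the 40 genes (RefSeq, GRCh38.p14). A single listed start site was searched per gene. For some genes, such as GM2A and IDS, that site lies inside the span of the gene, and letters at other start sites were not searched. CACGTG, the E-box core, occurred in 11 of the 31 windows (35.5%) and in 7.43% of the 27305 windows of all genes in that table. TCACGTGA, which contains the core, occurred in 7 of 31 (22.6%) against 1.04%, and GTCACGTGAC, which contains both, in 3 of 31 (9.68%) against 0.381%. All 3 read the same on both strands. Each stretch is given 5′ to 3′ on the gene's strand, with the longest matching form in capitals. Those of GAA, GALNS and MCOLN1 hold the 10-base form, those of ATP6V0D1, CTSA and LAMP1 the 8-base form, and those of CD63, NEU1 and CTSF the core alone. Matches in CTSD and CLN3 are not printed. The window of CTSD, which was not called, holds the core alone, and that of CLN3, which was not tested, holds the 8-base form.
GAA, chr17:80101523-80101580 (+): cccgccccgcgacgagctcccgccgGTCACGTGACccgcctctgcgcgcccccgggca
GALNS, chr16:88857089-88857148 (-): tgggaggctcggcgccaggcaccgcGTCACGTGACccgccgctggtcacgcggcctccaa
MCOLN1, chr19:7522583-7522623 (+): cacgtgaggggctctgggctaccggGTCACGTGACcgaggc
ATP6V0D1, chr16:67481185-67481242 (-): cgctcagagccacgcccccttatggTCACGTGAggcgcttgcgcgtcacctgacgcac
CTSA, chr20:45891284-45891334 (+): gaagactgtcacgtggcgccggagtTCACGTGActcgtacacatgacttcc
LAMP1, chr13:113297185-113297238 (+): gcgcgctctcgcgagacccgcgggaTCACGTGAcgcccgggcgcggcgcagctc
CD63, chr12:55729159-55729214 (-): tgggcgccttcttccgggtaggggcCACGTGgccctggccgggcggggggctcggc
NEU1, chr6:31862917-31862972 (-): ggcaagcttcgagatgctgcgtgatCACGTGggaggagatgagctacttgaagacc
CTSF, chr11:66568627-66568682 (-): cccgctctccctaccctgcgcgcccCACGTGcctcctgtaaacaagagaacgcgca

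All 7 genes that rose had a window, and 2 of them, CD63 and NEU1, held the core, with 0 holding the 8-base form. The 6 tested genes with the 8-base form had log2 fold changes of -0.15 to -0.03 with a median of -0.07, and limma called 0 of them (0 at an unadjusted p under 0.05, and 0 called with voom weights). So few genes cannot set 0 calls apart from the 20.5% called of the 39. All of the 6 but LAMP1 had a transcript GC content over 52.7%, where most lysosomal genes had values below 0. The 24 tested genes with a window and without that form ranged from -0.44 to 0.33 with a median of 0.11. The sign of the 6 values depended on the scaling and on single libraries: 5 of them lay above 0 after rescaling to TPM, 4 after removal of each library's trend with GC content, 2 without control replicate 1 and 1 without fatty acid replicate 3. Over all 183 tested genes with the 8-base form the median was 0.09, with 9.84% called higher and 3.28% lower. The 9510 genes whose window lacked it had a median of 0.06, with 9.63% called higher and 4.60% lower. A match of letters is a description of the window and does not show binding.

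**Figure D2:**
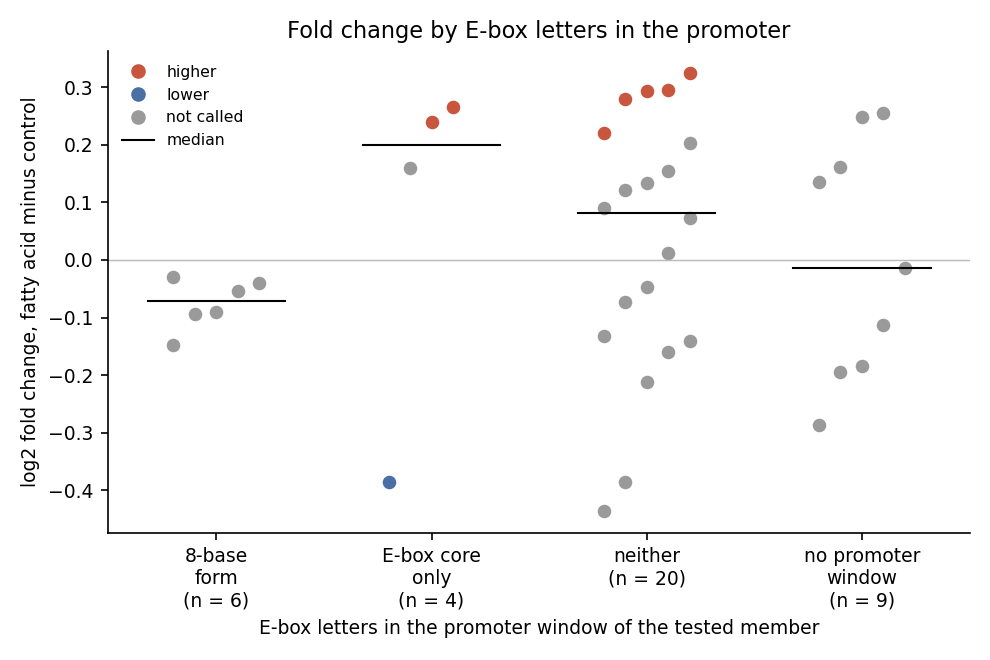
Log2 fold change, fatty acid minus control, of the 39 tested lysosomal genes by the longest E-box form in the promoter window. The 6 genes with the 8-base form lie between -0.15 and -0.03, and the genes called higher hold the core alone (2) or neither form (5); bars are medians, and 9 tested genes had no window.

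Of 9 cathepsins, the lysosomal proteases and the carboxypeptidase CTSA, 1 rose and 1 fell, with a median log2 fold change of 0.09. CTSL encodes cathepsin L, a cysteine endopeptidase (chr9:87725519-87731393, GRCh38). It stood at 94.9, 103 and 98.4 FPKM in control replicates 1, 2 and 3 and at 113, 131 and 118 FPKM in the fatty acid replicates. Every fatty acid library lay above every control library, by a log2 fold change of 0.28 ± 0.07 (SE, adjusted p = 0.0359). The call held without control replicate 2 but not without any other single library (adjusted p 0.0663 to 0.119). It was also lost with scaling by the median of ratios (adjusted p = 0.0667), and CTSL was called in 7 of 18 alternative analyses. CTSF encodes cathepsin F, another cysteine protease (chr11:66563463-66568841), and was the only lysosomal gene of the 39 that fell. Its level was 43.6, 38.8 and 35.8 FPKM in the control libraries and 29.5, 29.7 and 30.7 FPKM in the fatty acid libraries, which lay close together below all controls. The log2 fold change was -0.39 ± 0.07 (SE, adjusted p = 0.0191), and the call was lost without any one fatty acid library (adjusted p 0.0531 to 0.0875) and after rescaling to TPM (adjusted p = 0.0920).

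The other 7 cathepsins were not called and pointed in both directions. CTSB, cathepsin B, the cysteine protease with endo- and exopeptidase activity, stood at 93.2, 84.6 and 80.4 FPKM in the control libraries and 76.2, 76.1 and 74.4 FPKM in the fatty acid libraries. The groups did not overlap, with a log2 fold change of -0.18 ± 0.06 (SE, adjusted p = 0.0938). With scaling by the median of ratios CTSB was called lower (-0.23, adjusted p = 0.0369). CTSC, cathepsin C, which activates granule serine proteases in leukocytes, stood at 14.2, 13.1 and 12.4 against 15.8, 15.3 and 14.8 FPKM. Its groups did not overlap either, and it passed only without control replicate 1 among the fits that left out a library (0.25, adjusted p = 0.0373), against an adjusted p of 0.0863 with all 6. CTSD, the aspartic protease cathepsin D, was at 170.5, 137 and 133 FPKM in the control libraries and 166, 159.7 and 164 FPKM in the fatty acid libraries. Control replicate 1 alone lay above the fatty acid libraries, and the log2 fold change of 0.16 ± 0.09 (SE, adjusted p = 0.284) became 0.27 (adjusted p = 0.0141) without it. In GENCODE v29, 41.7% of the exonic bases of CTSD are shared with another gene model on the same strand, whose row in the table had a mean of 0.224 FPKM. CTSZ, the carboxypeptidase cathepsin X/Z, lay at 124 to 129 FPKM in the control and 131 to 139 FPKM in the fatty acid libraries. That narrow separation gave a log2 fold change of 0.09 (adjusted p = 0.231). The remaining values were -0.16 for CTSH, an aminopeptidase, -0.04 for CTSA, which also protects neuraminidase and beta-galactosidase, and 0.26 for CTSS, the cysteine protease of antigen-presenting cells (3.90 to 4.93 against 4.67 to 5.53 FPKM, adjusted p = 0.158).

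Among the 12 glycosidases, which remove sugars from glycoproteins, glycolipids, glycogen and glycosaminoglycans, GLA, NEU1 and FUCA2 rose, and the median log2 fold change was 0.01. GLA encodes alpha-galactosidase A, which removes terminal galactose from globotriaosylceramide and is deficient in Fabry disease (chrX:101397803-101407925). Its level was 7.24, 6.73 and 7.70 FPKM in the control libraries and 9.21, 8.50 and 9.84 FPKM in the fatty acid libraries. All fatty acid libraries were higher, and the log2 fold change of 0.33 ± 0.08 (SE, adjusted p = 0.0374) was the highest of the 39 genes. NEU1 encodes the lysosomal sialidase, deficient in sialidosis (chr6:31857659-31862906). It stood at 13.0, 12.3 and 12.5 FPKM against 15.7, 15.6 and 14.6 FPKM, again without overlap (0.27 ± 0.06 SE, adjusted p = 0.0269). FUCA2 encodes a secreted alpha-fucosidase (chr6:143494811-143511690). Its levels of 74.7, 72.8 and 72.2 FPKM in the control libraries lay below 87.4, 85.5 and 83.2 FPKM in the fatty acid libraries (0.22 ± 0.05 SE, adjusted p = 0.0232). GLA was called in none of the fits that left out a library (adjusted p 0.0548 to 0.131). NEU1 and FUCA2 were called only without control replicate 1 among those fits (in the others, adjusted p 0.0501 to 0.121 for NEU1 and 0.0514 to 0.119 for FUCA2). Scaling by the median of ratios (adjusted p = 0.0686) and limma with voom weights (adjusted p = 0.0512) also left GLA uncalled, and it was called in 5 of 18 alternative analyses.

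FUCA1, the lysosomal fucosidase of the same family, was not called (49.2 to 56.9 FPKM in the control and 54.9 to 56.9 FPKM in the fatty acid libraries, log2 fold change 0.07). MANBA, beta-mannosidase, had its fatty acid libraries at 5.92 to 6.35 FPKM above its control libraries at 5.14 to 5.87 FPKM (0.16, adjusted p = 0.190). NAGLU, which acts on heparan sulfate, was variable, at 14.9, 10.0 and 11.3 FPKM in the control libraries and 14.2, 12.8 and 16.0 FPKM in the fatty acid libraries. Its log2 fold change was 0.25 ± 0.14 (SE, adjusted p = 0.283), and 0.40 (adjusted p = 0.0490) without control replicate 1. IDUA, alpha-L-iduronidase, which cleaves dermatan and heparan sulfate, was the most variable in the control group, at 11.8, 6.91 and 8.35 FPKM, against 7.23, 5.43 and 7.37 FPKM. The wide spread left its log2 fold change of -0.39 ± 0.19 (SE, adjusted p = 0.215) uncalled. The last 5 lay between -0.13 and -0.05: MAN2B1 (-0.13, alpha-mannosidase), HEXA (-0.11, the alpha subunit of beta-hexosaminidase A), GAA (-0.09, the acid alpha-glucosidase that degrades glycogen), GUSB (-0.07, beta-glucuronidase) and GLB1 (-0.05, beta-galactosidase).

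None of the 5 sulfatases, which remove sulfate from glycosaminoglycans and sulfatides, was called by limma (0 at an unadjusted p under 0.05, and 0 called with voom weights), and their median log2 fold change was -0.15. ARSA, the sulfatide-degrading arylsulfatase A, stood at 17.2, 11.9 and 13.6 FPKM in the control libraries and 11.1, 10.7 and 12.6 FPKM in the fatty acid libraries. The groups overlapped, with a log2 fold change of -0.29 ± 0.13 (SE, adjusted p = 0.186). SGSH, the heparan N-sulfatase, was at 5.65, 4.89 and 4.28 FPKM against 4.06, 4.07 and 4.58 FPKM (-0.20, adjusted p = 0.253). For ARSA and SGSH alike control replicate 1 was the highest library. GALNS, which acts on keratan sulfate, had -0.15 (adjusted p = 0.397), at 2.44 to 3.20 against 2.28 to 2.62 FPKM. IDS, iduronate 2-sulfatase, had 0.12 and ARSB, arylsulfatase B, 0.13, both with overlapping groups.

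PPT1 was the called gene among the 4 other hydrolases and activators. It encodes palmitoyl-protein thioesterase 1, which removes palmitate from cysteines of S-acylated proteins on their way to degradation (chr1:40072705-40097703). The control libraries were at 21.9, 22.6 and 21.2 FPKM and the fatty acid libraries at 26.3, 28.1 and 26.5 FPKM. PPT1 rose in every fatty acid library above every control library, by 0.29 ± 0.05 (SE, adjusted p = 0.0159), and lost its call without fatty acid replicate 1, 2 or 3 (adjusted p 0.0501 to 0.0813). No other gene row of the table overlaps the position of PPT1. PSAP, the precursor of the saposins that present sphingolipids to their hydrolases, was the highest of the 40 genes, at 449, 414 and 403 FPKM in the control libraries and 416, 428 and 409 FPKM in the fatty acid libraries. The groups overlapped, and the log2 fold change of -0.01 had a 95% interval of -0.15 to 0.12. TPP1, tripeptidyl peptidase 1, had 0.01 with an interval of -0.13 to 0.15, and GM2A, the activator that presents GM2 ganglioside to hexosaminidase A, had 0.15 with an interval of -0.05 to 0.35.

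Of 7 membrane proteins tested, SCARB2 and CD63 rose, and the median log2 fold change was -0.03. SCARB2 encodes LIMP-2, the receptor that carries beta-glucocerebrosidase to the lysosome (chr4:76158737-76213893). It was at 68.7, 73.6 and 71.9 FPKM in the control libraries and 87.4, 89.3 and 86.4 FPKM in the fatty acid libraries. The gap between the groups was wider than the spread within either, and the log2 fold change was 0.30 ± 0.05 (SE, adjusted p = 0.0103), the smallest adjusted p of the 39 genes. SCARB2 was called in 16 of 18 alternative analyses, more than any other of the 39, and missed the threshold without fatty acid replicate 1 (adjusted p = 0.0615) and without fatty acid replicate 2 (adjusted p = 0.0607). CD63 encodes a tetraspanin of late endosomes, lysosomes and exosomes (chr12:55725323-55729707). It stood at 156, 163 and 172 FPKM against 189.8, 205 and 185 FPKM, with no overlap (0.24 ± 0.06 SE, adjusted p = 0.0433). Its call was lost without any one of the 6 libraries (adjusted p 0.0510 to 0.154), with the replicate number as a block (adjusted p = 0.0652) and with scaling by the median of ratios (adjusted p = 0.0869).

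The abundant lysosome-associated proteins LAMP1 and LAMP2, which line the membrane, were not called. LAMP1 was at 93.4, 85.3 and 75.03 FPKM in the control libraries and 84.6, 84.3 and 79.0 FPKM in the fatty acid libraries (-0.03, 95% interval -0.22 to 0.16). LAMP2, which also serves in chaperone-mediated autophagy, was at 44.1, 43.1 and 41.3 FPKM against 46.1, 49.1 and 46.2 FPKM. The LAMP2 groups did not overlap, yet the log2 fold change of 0.14 ± 0.05 (SE, adjusted p = 0.125) missed the threshold. The subunits of the proton pump had overlapping groups and negative estimates, -0.14 for ATP6AP1 (95% interval -0.34 to 0.06) and -0.05 for ATP6V0D1 (-0.22 to 0.12). So did MCOLN1, the calcium channel TRPML1 (-0.09, interval -0.39 to 0.20). CLN3, the Batten disease membrane protein, is listed on 2 rows. One was at 0 in every library and the other at 0.113, 0.144 and 0.0690 FPKM in the control and 0.121, 0.0850 and 0.0640 FPKM in the fatty acid libraries, which is 8 to 12 reads a library. In GENCODE v29, 25.2% of the exonic bases of CLN3 are shared with a same-strand gene model, so its level is uncertain. The summed level of the 8 membrane protein genes was 408 ± 5.69 FPKM in the control group and 452 ± 15.3 FPKM in the fatty acid group (SD, n = 3 each), and the libraries did not overlap. Without CD63 and SCARB2 the sum of the other 6 was 173 ± 15.5 against 172 ± 3.53 FPKM, with overlap.

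**Figure D3:**
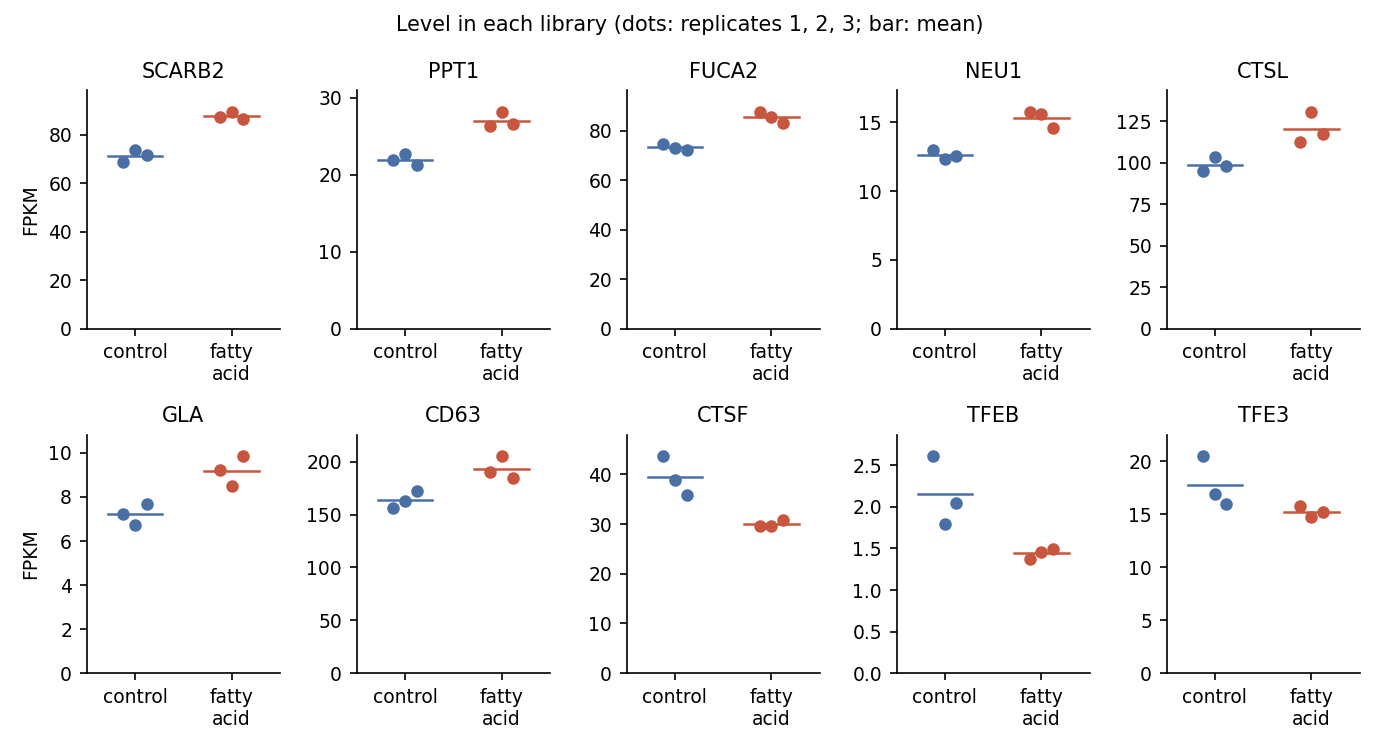
FPKM in each of the 6 libraries (points, replicates 1 to 3 from left to right; bars, group means; each axis starts at 0) for the 7 lysosomal genes that rose, for CTSF, which fell, and for TFEB and TFE3, which were not called. In all 10 panels the groups do not overlap, and the differences are small beside the level, as for SCARB2 at 68.7 to 73.6 against 86.4 to 89.3 FPKM.

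TFEB and TFE3, the transcription factors of the CLEAR network, were not called by limma (1 of the 2, TFEB, was lower at an unadjusted p under 0.05). TFEB (chr6:41683978-41736259) was at 2.61, 1.79 and 2.05 FPKM in the control libraries and 1.38, 1.46 and 1.499 FPKM in the fatty acid libraries. All fatty acid libraries were lower, and the log2 fold change of -0.44 ± 0.13 (SE, 95% interval -0.74 to -0.13) was the lowest of the 39 genes, with an adjusted p of 0.0690. Its counts were 64 to 137 reads a library. With voom weights on the recovered reads TFEB was called lower (-0.56, adjusted p = 0.0128), as it was without control replicate 2 (-0.54, adjusted p = 0.0458). TFE3 (chrX:49028726-49043486) was at 20.4, 16.9 and 16.0 FPKM against 15.7, 14.7 and 15.2 FPKM. Its fatty acid libraries also lay below all controls, by a narrow margin from control replicate 3 (-0.21 ± 0.09 SE, adjusted p = 0.168). These values are of mRNA and hold no information on where the proteins were in the cell.

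By level in the control group the 40 genes spanned from PSAP (422 ± 24.2 FPKM, SD, n = 3) through CD63 (163 ± 8.21), CTSD (147 ± 20.5), CTSZ (127 ± 2.54) and CTSL (98.9 ± 4.27) to GALNS (2.78 ± 0.384), TFEB (2.15 ± 0.417) and CLN3 (0.109 ± 0.0377). FPKM is per length, and the length used for HEXA (12611 bases) and CTSC (11421 bases) equals all exonic bases of their gene models in GENCODE v29. Where the expressed transcript is shorter than that, FPKM understates its level, so the order between genes is approximate. PSAP alone made up 22.1% of the summed FPKM, and these first 5 genes 50.2%. PSAP, CTSZ and CTSL stood clear of the next gene in the order, while CD63 and CTSD overlapped in their control libraries. From CTSB (86.0 ± 6.54) down to SCARB2 (71.4 ± 2.48), CTSB, LAMP1, TPP1, CTSA and FUCA2 each overlapped with the next gene in the order and are not ordered beyond their spread, while SCARB2 stood clear of the next, FUCA1. TFE3 stood at 17.8 ± 2.35 FPKM, above TFEB in every library.

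The control libraries of the lysosomal genes were not interchangeable. Control replicate 1 was the highest of the 3 controls for 28 of the 39 genes (71.8%), against 44.3% of all genes tested. In the fatty acid group each replicate was the highest for 13 genes. The median coefficient of variation of the 39 genes was 8.92% in the control group and 3.66% in the fatty acid group, against 10.53% and 7.10% over all genes. ARSA, SGSH, IDUA, CTSD, CTSB, TFEB and TFE3 were among the genes with control replicate 1 highest. Without it the median log2 fold change of the 39 genes was 0.04, against -0.01 with it.

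The fold changes also followed the base composition of the transcripts. Across the 39 genes, Pearson's r of the GC content of the longest transcript with the log2 fold change was -0.60 (Spearman's rho -0.58), and r was -0.33 across all genes tested, points that share the same 6 libraries. All 6 lysosomal genes in the low tertile of GC (under 43.7%), among them SCARB2, LAMP2, CTSC and CTSS, had values above 0. In the middle tertile 5 of 12 were called higher, among them PPT1, GLA and CTSL. In the high tertile (over 52.7%) 17 of 21 had values below 0, CTSF was called lower, and CD63 was called higher. Over all genes the medians of the low, middle and high tertiles were 0.15, 0.06 and -0.09, with 14.9%, 7.72% and 2.14% called higher and 2.53%, 3.92% and 7.64% called lower. With each library's GC trend removed, 5 lysosomal genes were called higher and 2 lower, and 4 of the 8 calls were the same: SCARB2 (0.17, adjusted p = 0.0225), PPT1 (0.20, adjusted p = 0.0234), NEU1 (0.26, adjusted p = 0.0137) and CTSF (-0.27, adjusted p = 0.0154). FUCA2 (0.11, adjusted p = 0.118), CTSL (0.28, adjusted p = 0.0502), GLA (0.28, adjusted p = 0.0735) and CD63 (0.28, adjusted p = 0.0645) missed the threshold. CTSD (0.32, adjusted p = 0.00842), NAGLU (0.41, adjusted p = 0.0150) and, downward, CTSB (-0.17, adjusted p = 0.0352) passed it, and the estimate of LAMP2 changed sign to -0.04. The part of base composition in these changes was not tested beyond that removal.

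**Figure D4:**
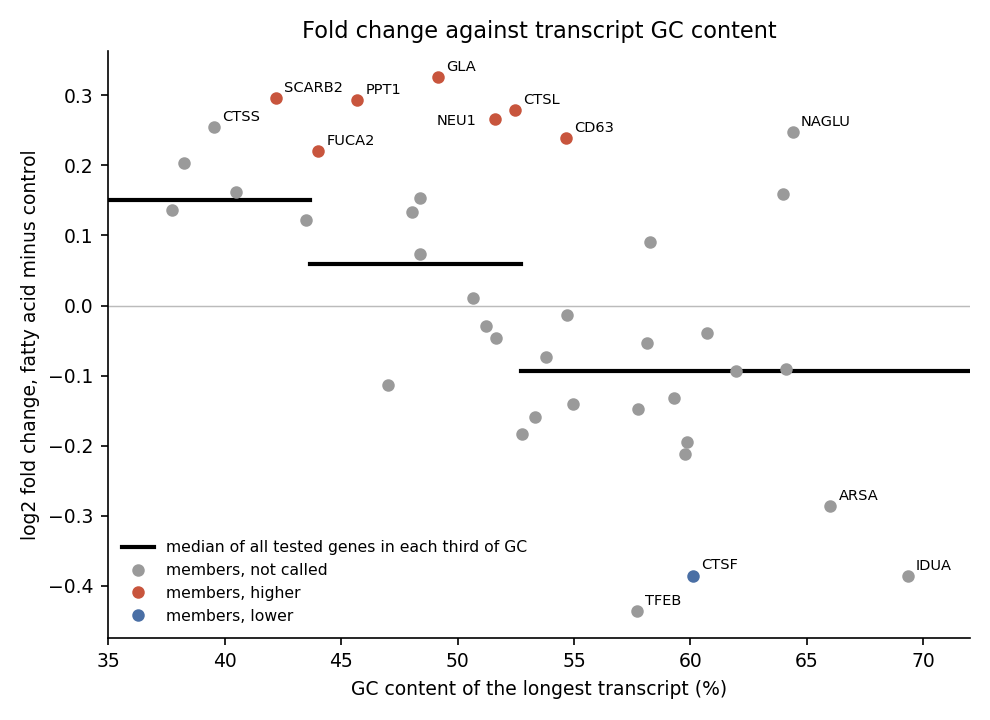
Log2 fold change, fatty acid minus control, against the GC content (%) of the longest transcript of the 39 tested lysosomal genes; black lines are medians of all genes tested in each tertile of GC (0.15, 0.06 and -0.09). Values are mostly above 0 at low GC and below 0 at high GC, with CD63 the only gene called higher above 52.7% GC.

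Lists of 147 other genes of the lysosome and autophagy were described by the same fit, to set these genes beside the rest of the compartment. Of 128 tested, 16 rose and limma called 0 lower (17 lower at an unadjusted p under 0.05, and 12 called lower with voom weights), which is 12.5% called against 12.9% of all genes. The median log2 fold change was 0.06. The smallest adjusted p were those of LIPA and NPC1, which act in succession on lipoprotein cholesterol. NPC1, the membrane protein that exports cholesterol from the lysosome, was at 4.64, 4.49 and 4.56 FPKM in the control libraries and 7.55, 7.49 and 7.23 FPKM in the fatty acid libraries (0.65 ± 0.06 SE, adjusted p = 0.00102). LIPA, the acid lipase that hydrolyses cholesteryl esters and triglycerides, was at 37.8, 37.5 and 36.9 FPKM against 54.3, 52.0 and 51.5 FPKM (0.49 ± 0.05 SE, adjusted p = 0.00109). Both rose by more than any of the 40 genes, with libraries tightly grouped on either side, and both were called in each of the 18 alternative analyses.

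Of 28 other hydrolases tested, 3 rose, LIPA among them. Of 23 other membrane proteins and transporters, 5 rose: NPC1, MFSD1 (0.30, adjusted p = 0.0145), CD164 (0.23, adjusted p = 0.0265), OSTM1 (0.33, adjusted p = 0.0325), the partner of the chloride transporter CLCN7, and LAMP3 (0.59, adjusted p = 0.0366), which was named after its values were seen. With a minimum mean of 2 FPKM, 19 genes of this list were tested. Of these 4 were called higher, LAMP3 not among them, and 1 lower. Of 15 other V-ATPase subunits, ATP6V1C1 (0.32, adjusted p = 0.0287) and ATP6AP2 (0.24, adjusted p = 0.0316) rose. Of 17 genes of nutrient sensing and TFEB control, 4 rose: YWHAG (0.28, adjusted p = 0.0179), a 14-3-3 protein, FNIP2 (0.40, adjusted p = 0.0435) and FNIP1 (0.25, adjusted p = 0.0452), partners of folliculin, and RRAGD (0.33, adjusted p = 0.0497), a Rag GTPase. Of 22 autophagy genes, the cargo receptors OPTN (0.24, adjusted p = 0.0355) and SQSTM1 (0.27, adjusted p = 0.0480) rose. Of 17 genes of delivery to the lysosome limma called 0 (6 higher and 2 lower at an unadjusted p under 0.05, and 2 and 2 called with voom weights), with M6PR, the cation-dependent mannose 6-phosphate receptor, at 0.30 (adjusted p = 0.0587) and GNPTG at -0.23 (adjusted p = 0.0887). Of 6 cathepsin inhibitors limma called 0 (2 higher and 1 lower at an unadjusted p under 0.05, and 1 and 1 called with voom weights), with CSTA, cystatin A, at 0.54 (adjusted p = 0.0534) and SERPINB1 at 0.16 (adjusted p = 0.1096). Without fatty acid replicate 1 or 2 the 16 calls fell to 2, NPC1 and LIPA. Leaving out fatty acid replicate 3 gave 4 higher and 0 lower, and leaving out control replicate 3 gave 4 higher and 2 lower.

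**Figure D5:**
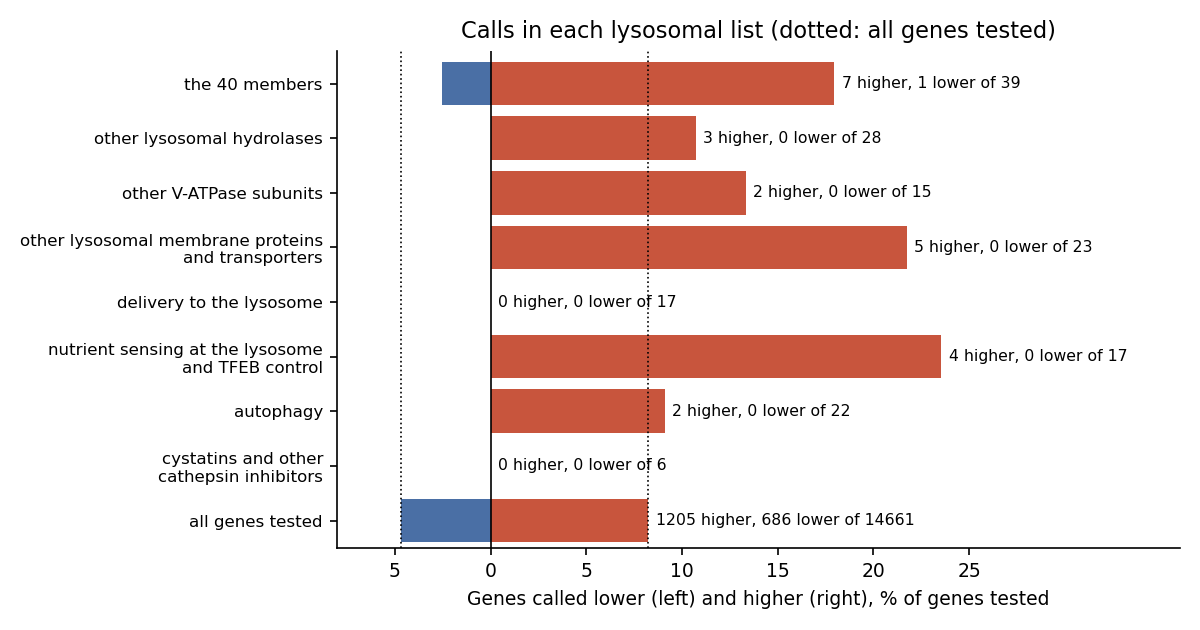
Share of tested genes called lower (left of 0) and higher (right of 0), in % of the genes tested, for the lysosomal genes described here, 7 further lists and all 14661 genes tested. Dotted lines are the shares over all genes, 4.68% lower and 8.22% higher, and the counts stand beside the bars.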

How the data were processed

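The authors deposited FPKM values, rounded to 3 decimals, of 58037 gene rows in 6 libraries made with an Illumina stranded mRNA kit from 100 ng of RNA, per the labels' protocols. The tools STAR 2.5.2, Subread 1.5.1 and featureCounts and the build GRCh38 are listed, without roles, in the submitters' processing notes. Neither strand setting nor annotation release is given in the sources used here. FPKM depends on the total of each library, so a few abundant genes can shift all others.

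FPKM times gene length gave whole reads for 100% of the values fine enough to tell (tolerance 0.02 reads beyond rounding). Depth was 8.96, 6.33 and 11.8 M reads in control replicates 1, 2 and 3 and 8.36, 14.4 and 15.9 M in fatty acid replicates 1, 2 and 3. Counting error therefore weighs most on the lowest genes, such as TFEB.

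Groups and replicate numbers came from the sample titles. All genes were fitted with limma 3.58.1 in R 4.3.3 (linear model with an intensity trend, no covariate) on log2(FPKM + 0.5), for genes whose mean reached 0.5 FPKM, and p-values were adjusted by Benjamini-Hochberg (threshold 0.05). Fold changes are on this scale, which understates changes of low genes. The fit was checked on simulated data with a fixed spread and planted changes larger than those of the called lysosomal genes. That check does not show how well changes as small as theirs are found. The 40 genes and the lists beside them were chosen with earlier results of these data known. Named were all 40 genes and, of each further list, up to 4 called genes with the smallest adjusted p, or 2 where none passed; some called genes of the further lists are not reported here. Exon overlaps and GC content came from GENCODE v29 and promoter windows from RefSeq. Pseudocounts, filters, scalings, a fit without the trend, voom, a replicate block and leaving out each library were tried as alternatives, and removal of the GC trend was added after the data were seen.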

Additional observations from a re-analysis of the deposited data

How the results depend on the processing

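Counts are given as higher and lower, for the lysosomal genes, for the further lists and for all genes, against 7 and 1, 16 and 0, and 1205 and 686. Pseudocounts of 0.1 and 1 left the 8 calls of lysosomal genes as they were. Without an expression filter the counts were 4 and 1, 8 and 0, and 640 and 337, and with a minimum mean of 2 FPKM 2 genes of the further lists were called lower. Scaling by the median of ratios gave 4 and 2, 8 and 4, and 779 and 818. Quantile normalization gave 4 and 2, 8 and 4, and 758 and 772, and scaling to nuclear genes 4 and 2, 7 and 4, and 717 and 849. Rescaling to TPM gave 9 and 0, 32 and 0, and 2615 and 408. Limma without the trend gave 2 and 0 (8 and 2 at an unadjusted p under 0.05), 4 and 0, and 642 and 459. Voom on recovered reads gave 7 and 4, 22 and 12, and 1846 and 1153. Removal of the GC trend, added after the data were seen, gave 5 and 2, 5 and 3, and 706 and 763. Leaving out 1 library in turn gave 0 to 7 higher and 0 to 2 lower of the lysosomal genes, 2 to 12 and 0 to 2 of the further lists, and 230 to 1109 and 233 to 686 of all genes, with fewer libraries in each such fit. Beyond that, the cause of these shifts was not tested. Over 18 alternatives none of the 8 called genes changed sign, and in all there were 60 lost and 16 gained calls, and 27 changes of sign among uncalled lysosomal genes.

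The labels state no pairing of same-numbered libraries, whose deviations from the group means correlated at 0.01, 0.08 and 0.02. Control replicates 2 and 3 correlated best with the same-numbered fatty acid library, and control replicate 1 with fatty acid replicate 3 (0.07). Correlations this low cannot tell whether the libraries were paired. With the replicate block, 6 lysosomal genes were called higher and 1 lower, 8 genes of the further lists higher and 1 lower, and 817 and 657 of all genes. CD63 was the lysosomal gene that lost its call (adjusted p = 0.0652). TFEB, at 64 to 137 reads a library, was the lowest of the tested lysosomal genes, where depth limits the estimate most, and the level of CLN3 rests on 8 to 12 reads.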
